A study of Mus musculus with 8 samples.

Results

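The genes described here are 47 mouse genes of the interferon response and of class I antigen presentation, measured by RNA sequencing in ID8-OR cells, a mouse ovarian cancer line made resistant to olaparib. A member was read by the row of the count table that carries its symbol, and by any row whose exons overlap at least 50 bases of its exons on the other strand. Rows with at least 10 counts over the 8 libraries were kept, and no fold change entered this choice of rows. The members themselves were chosen with earlier results of these data known. All 47 members had a row, 10 members had an overlapping row on the other strand, and 24 of the resulting 55 rows were kept, out of 54146 rows in the table and 14677 that met the same minimum. The kept rows were 18 rows of members and 7 rows on the other strand of a member, with the Psmb9 row in both sets. No row of the module passed the test in any comparison. The best covered rows, on the strands of tapasin (Tapbp) and of the transcription factor Irf1, had log2 fold changes of 0.42 ± 0.11 and 0.27 ± 0.13 for the combination of both compounds against DMSO (SE, n = 2 libraries each; edgeR adjusted p = 0.335 and 0.973), and most of the other rows lie near the detection limit.

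Cells were exposed for 72 hours to olaparib, to EZM8266, to both compounds (the combination), or to DMSO, the solvent, with 2 libraries in each of the 4 groups. All groups are the same resistant line. Olaparib inhibits PARP enzymes, which act at DNA breaks, and EZM8266 is given by the submitters as an inhibitor of EHMT1 and EHMT2, enzymes that place repressive methylation on histone H3. The labels give no doses and do not state that each replicate is a culture of its own. The p-values therefore rest on how far these libraries differ within a group, and that spread may be technical.

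Type I interferons act through receptors and JAK kinases on a complex with STAT2 and IRF9, which binds the interferon-stimulated response element (ISRE) in promoters of antiviral genes, while interferon gamma acts at GAS elements and induces IRF1. Nucleic acid sensors such as RIG-I (Ddx58) and MDA5 (Ifih1) signal through MAVS to start the response. Among the targets are the parts of the class I pathway, in which the immunoproteasome cuts peptides, TAP1 and TAP2 carry them into the endoplasmic reticulum, tapasin (Tapbp) helps to load them, and B2m pairs with the heavy chains H2-K1 and H2-D1 on the cell surface.

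Promoter windows were read to show where the most counted rows lie and which members carry an ISRE. RefSeq promoter windows of GRCm38.p6 (the mm10 assembly), from 250 bases before to 50 bases after the annotated start, were found for 38 of the 47 members. The ISRE letters, GAAA followed by 2 bases of any kind and a further GAAA, searched on both strands, were in a window of 17 of these 38 members (44.7%), against 1079 of all 27025 genes in the table (3.99%). The GAS letters TTCNNNGAA, the same on both strands, were in a window of 7 members (18.4%), against 2582 genes (9.55%). A match describes letters in the window and is not a measured binding site. In the windows of Tapbp (chr17:33919228-33919527, plus strand) and Tap1 (chr17:34187306-34187605, plus strand), capitals mark the bases that lie under exons of the row on the other strand, which are 249 bases for Tapbp and all 300 bases for Tap1. In the Irf1 window (chr11:53769764-53770063, plus strand) capitals mark the GAS letters.
Tapbp: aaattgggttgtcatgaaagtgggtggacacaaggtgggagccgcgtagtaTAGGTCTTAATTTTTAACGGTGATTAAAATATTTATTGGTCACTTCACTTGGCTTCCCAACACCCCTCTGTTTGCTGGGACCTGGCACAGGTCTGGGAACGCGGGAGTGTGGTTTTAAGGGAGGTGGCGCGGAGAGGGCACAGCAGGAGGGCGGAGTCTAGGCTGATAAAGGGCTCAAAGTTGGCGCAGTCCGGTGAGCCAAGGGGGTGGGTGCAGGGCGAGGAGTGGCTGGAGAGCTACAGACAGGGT
Tap1: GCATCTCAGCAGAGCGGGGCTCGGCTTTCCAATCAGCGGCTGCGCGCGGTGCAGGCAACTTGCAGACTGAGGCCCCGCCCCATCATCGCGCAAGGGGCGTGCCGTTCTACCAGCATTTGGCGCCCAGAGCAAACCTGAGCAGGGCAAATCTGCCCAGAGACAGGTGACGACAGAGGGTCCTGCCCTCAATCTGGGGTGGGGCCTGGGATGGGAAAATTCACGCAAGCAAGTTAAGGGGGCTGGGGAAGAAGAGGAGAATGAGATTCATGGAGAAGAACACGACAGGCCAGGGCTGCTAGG
Irf1: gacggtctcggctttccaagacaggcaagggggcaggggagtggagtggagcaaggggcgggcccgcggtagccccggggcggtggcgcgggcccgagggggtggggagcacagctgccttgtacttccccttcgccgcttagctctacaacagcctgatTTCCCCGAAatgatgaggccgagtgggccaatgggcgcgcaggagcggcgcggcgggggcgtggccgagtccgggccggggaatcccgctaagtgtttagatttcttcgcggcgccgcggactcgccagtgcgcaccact
The windows of B2m (chr2:122147437-122147736, plus strand) and Ifit1 (chr19:34640639-34640938, plus strand) are shown as examples of members with a kept own row and ISRE letters, in capitals, in the window, which Ddx58, Ifih1 and Stat2 also have. These sequences were chosen with the positions and counts known.
B2m: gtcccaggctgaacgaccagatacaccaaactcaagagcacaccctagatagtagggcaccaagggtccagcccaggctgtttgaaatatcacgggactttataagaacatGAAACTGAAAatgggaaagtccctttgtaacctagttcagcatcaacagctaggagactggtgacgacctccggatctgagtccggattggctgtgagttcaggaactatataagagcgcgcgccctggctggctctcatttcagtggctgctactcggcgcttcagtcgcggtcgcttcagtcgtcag
Ifit1: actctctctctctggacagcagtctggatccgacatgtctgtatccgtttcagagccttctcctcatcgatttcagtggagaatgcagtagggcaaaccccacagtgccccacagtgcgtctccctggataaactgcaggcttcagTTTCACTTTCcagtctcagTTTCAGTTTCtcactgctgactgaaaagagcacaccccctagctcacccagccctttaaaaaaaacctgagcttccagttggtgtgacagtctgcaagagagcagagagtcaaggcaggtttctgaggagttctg

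The strand of the counts sets what each row shows. The library kit marks the strand, and the counting setting took fragments from the strand opposite to the transcript, so the row of a member holds mainly fragments opposite to that member, and a row on its other strand holds mainly fragments in the direction of the member. Counts summed to 973382 to 1680974 per library, from 4.54 to 5.399% of the fragments, and 3 counts corresponded to 1.853 to 3.022 TMM-scaled CPM (counts relative to the scaled library total). Leakage between strands, taken as the part of the joint Rmrp and Ccdc107 count that fell in the Rmrp row, was 1.535 and 1.42% with olaparib, 1.547 and 1.044% with EZM8266, 1.44 and 1.212% with the combination and 1.243 and 1.679% with DMSO. In the satellite repeat row Gm10800, olaparib replicate 2 and DMSO replicate 1 stood apart, with 22517 and 23746 counts against 1182 to 4277 elsewhere. EZM8266 replicate 2 had the lowest assigned share (4.54%) and leakage (1.044%). Its correlations with the other libraries, over log CPM of the tested rows, were 0.931 to 0.961. A row with the symbol of a marker was taken as detected at any count above 0, and holds mainly fragments opposite to the marker. Markers of ovarian surface epithelium and mesothelium were detected in 8 of 8 rows, with 50 to 178 counts in sum per library. Krt7, Lrrn4 and Upk3b held 4, 5 and 13 counts over all libraries. The row on the strand of Krt8 held 196 to 362 counts per library, and the row on the strand of Krt7 held 4 over all libraries. Fibroblast markers were detected in 4 of 4 rows, mostly Col1a1, with 46 to 240 counts in sum per library, and endothelial markers in 4 of 4 rows with 1 to 6 counts. Of the leukocyte markers, the rows of Adgre1, Cd3e, Itgam and Lyz2 were at 0 in every library, and the other 4 rows, mostly Csf1r, held 94 to 145 counts in sum. Rows on the strand of the other markers were low, with 0 to 9 counts per library for Csf1r, 0 to 1 for Pdgfra and 0 for Cd3e. In such bulk libraries, fewer cells that express a gene and less RNA per cell cannot be told apart.

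The module was thinly covered outside a few rows. The 24 kept rows held 9187 counts over the 8 libraries, of which 77.6% lay in the Gm19412 row, on the strand of Tapbp, and the Gm17334 row, on the strand of Irf1. The median of the 47 members' own rows was 8 counts over all libraries. Of those own rows, 29 had under 10 counts, with at most 4 in any library, and Bst2, Ifit3 and Ifit3b were at 0. Just inside the minimum were Samd9l with 10 counts, Herc6 with 11 and Xaf1 with 12, and just outside were Gbp7, Ifit2, Isg15, Oasl1 and Tlr3 with 9 each. Only 10 of the 24 kept rows passed the filter of the edgeR fit, 5 of them rows of members (Irf1, Tapbp, Irf7, Ddx58 and B2m) and 5 rows on the strand of a member, and the results below come from this fit unless stated.

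Levels per kilobase of row are given for the 7 members that a kept row on the other strand reads. These members were chosen by a minimum count on that row and by none on their own row, so the direction of the difference is favoured by the choice. The Gm19412 row held 6000 counts per kilobase over all libraries, against 102.5 in the Tapbp row. The Gm17334 row held 2146 counts per kilobase and the Irf1 row 115.9. The Gm15821 row, on the strand of the peptide transporter subunit Tap2, held 231.4 counts per kilobase and the Tap2 row 1.322. The Gm45542 row, on the strand of the double-stranded RNA receptor Tlr3, held 143.8 and the Tlr3 row 1.728. The Gm20496 row, which overlaps both the immunoproteasome subunit Psmb8 and Tap2, held 102.6 and the Psmb8 row 0.3655. The rows on the strand of the remaining members were less densely covered, which were Dhx58os (20.08, against 1.222 in the row of Dhx58, the sensor LGP2) and the Psmb9 row, which reads the strand of Tap1 (12.03, against 0.3652 in the Tap1 row). Of the 3 members whose row on the other strand was not kept, Ifi47 (Gm12188 row 16.13, own row 7.279) and Nlrc5 (9330175E14Rik row 0.3368, own row 0.1177) ran the same way, and Psmb9 ran the other way (Tap1 row 0.3652, own row 12.03). The 24 rows were not alike in what is annotated on their other strand. For 10 rows it was an exon, for 3 the body of a gene only, for 2 the stretch downstream of a gene and for 9 none of these.

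The rows differed in how much of them overlaps the member, and the table does not say where in a row its fragments lie. The Gm19412 row (ENSMUSG00000101438.1, chromosome 17, 33919279 to 33920289, minus strand) overlaps Tapbp exons by 665 bases, 77.0% of the row, with a further 199 bases in Tapbp introns. It also overlaps exons of Zbtb22, on the same strand as Tapbp, by 46 bases, and lies 3689 bases downstream of the end of Daxx. The row therefore does not read Tapbp alone. The Gm17334 row (ENSMUSG00000091191.1, chromosome 11, 53772281 to 53773187, minus strand) is a single exon nested in Irf1, with 135 bases over Irf1 exons, of which 100 are coding, and 772 bases in Irf1 introns. The Gm15821 row has 533 bases over Tap2 exons and 677 in its introns, and the Gm45542 row has 381 bases over exons of Tlr3. The Psmb9 row overlaps Tap1 by 212 bases, all in the 5′ UTR, and its other 3447 bases lie outside Tap1, in the Psmb9 gene on the other side of the shared start region. The Dhx58os row overlaps the coding part of Dhx58 by 141 bases, 8.8% of the row, and has 1099 bases outside that gene. It also overlaps the body of Zfp385c, on the same strand as Dhx58, and so does not read Dhx58 alone.

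No row of the module was called in any of the 8 comparisons at an adjusted p under 0.05, by edgeR or by DESeq2. Of all 6379 rows tested by edgeR, 0% were called with olaparib against DMSO, 0.204% with EZM8266 against DMSO, 0.219% with the combination against DMSO, 0.0941% with the combination against olaparib, 0% with the combination against EZM8266, 0% in the interaction of both compounds, 0.658% for EZM8266 averaged over olaparib (the 4 libraries with EZM8266 against the 4 without it) and 0% for olaparib averaged over EZM8266. At these shares, 10 tested rows would hold less than 1 call, so the absence of calls is no result about the module. At an unadjusted p under 0.05, edgeR found 1 of the 10 rows for olaparib against DMSO, and 117 of all 6379 rows. For EZM8266 and for the combination against DMSO it found 1 of the 10 each, and 365 and 312 of all rows. For EZM8266 averaged over olaparib it found 2 of the 10, and 432 of all rows. For olaparib averaged over EZM8266 it found 1 of the 10, and 108 of all rows. It found 0 of the 10 in the other comparisons, and 98 to 243 of all rows. DESeq2 found 0 for olaparib and 1 each for EZM8266 and for the combination against DMSO, 1 in each averaged comparison and 0 in the others. The matching counts over all rows are not given for DESeq2. With all 24 kept rows in an edgeR fit of the 14677 rows, again none was called, and the smallest adjusted p was 0.454. In that fit the share of rows called was 0% for olaparib against DMSO and 0.123% for EZM8266 against DMSO. It was 0.136% for the combination against DMSO, 0.0409% for the combination against olaparib, 0.00681% for the combination against EZM8266, 0.00681% in the interaction, 0.341% for EZM8266 averaged over olaparib and 0% for olaparib averaged over EZM8266.

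The strand of Tapbp, the tapasin of the peptide-loading complex, held the most counts of the module. Its Gm19412 row had 559.9 and 574.9 TMM-scaled CPM with olaparib, 532.6 and 530.2 with EZM8266, 629.5 and 617.0 with the combination, and 488.7 and 445.8 with DMSO. The 4 groups did not overlap: both combination libraries were highest, followed by olaparib, EZM8266 and DMSO. The log2 fold change against DMSO was 0.28 ± 0.11 with olaparib (SE, edgeR adjusted p = 0.999), 0.19 ± 0.11 with EZM8266 (adjusted p = 0.877) and 0.42 ± 0.11 with the combination (adjusted p = 0.335, unadjusted 0.00282, 95% interval 0.17 to 0.66). The combination differed from olaparib alone by 0.14 ± 0.11, with a 95% interval of -0.11 to 0.38, and the interaction of both compounds was -0.05 ± 0.16, with an interval of -0.40 to 0.29. The Tapbp row itself, with 31 to 51 counts per library, had 36.78 and 39.85 CPM with olaparib, 38.59 and 30.83 with EZM8266, 33.24 and 38.01 with the combination, and 33.3 and 31.49 with DMSO. Its log2 fold change for the combination against DMSO was 0.14 ± 0.25 (adjusted p = 0.996), and the interval of -0.40 to 0.69 holds the value of the Gm19412 row.

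**Figure D1:**
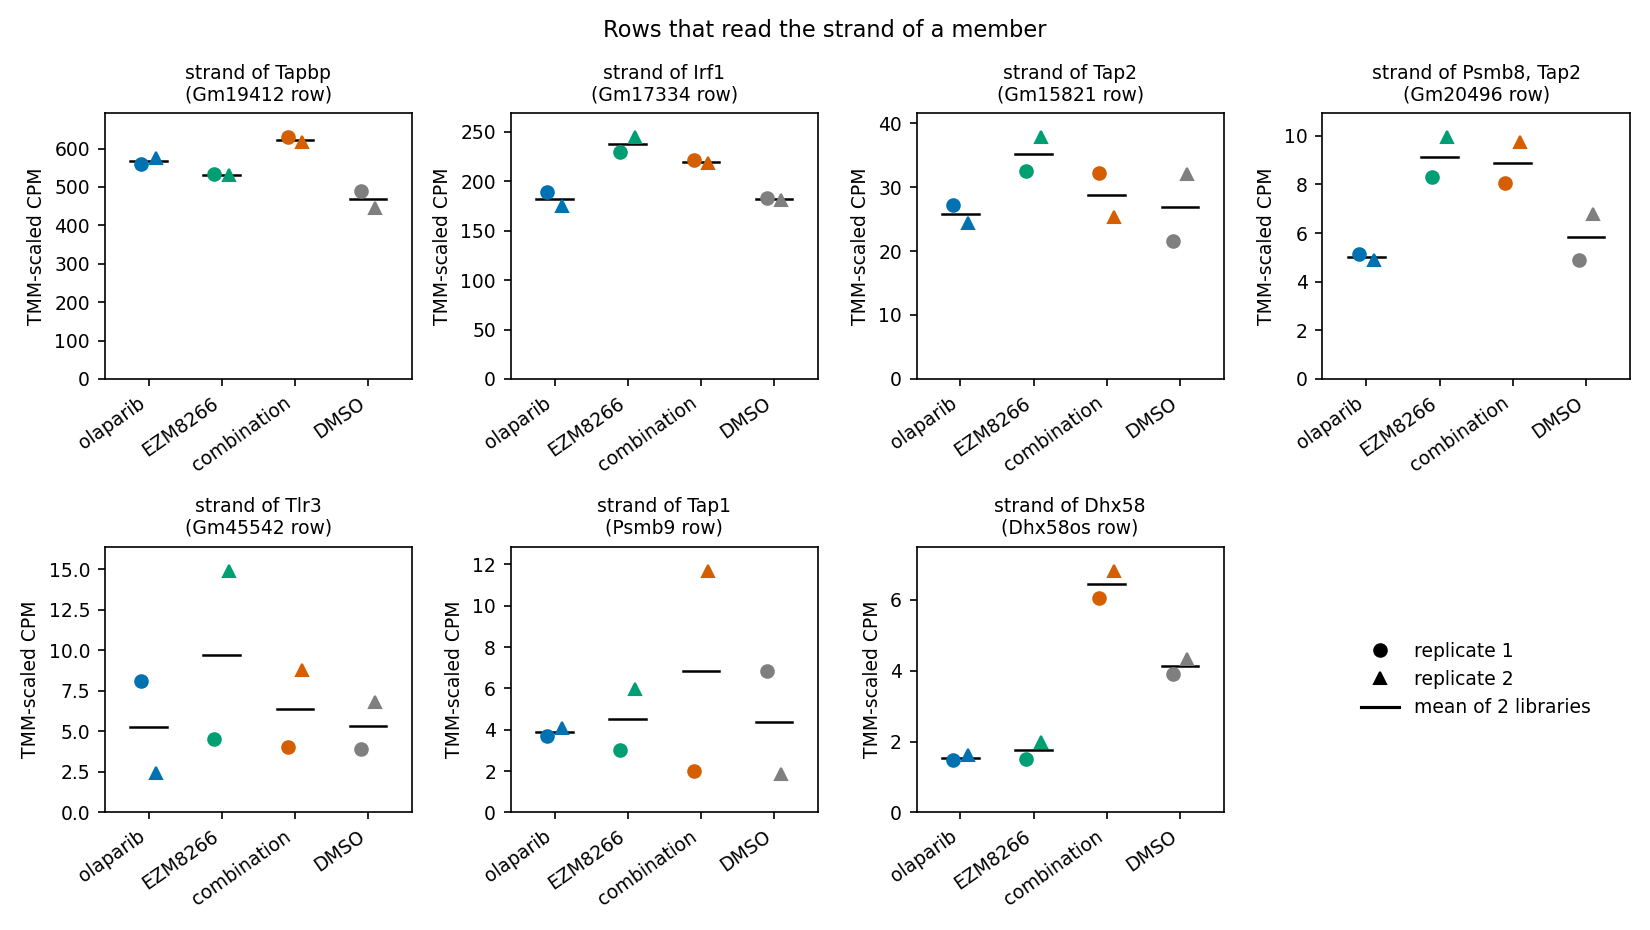
TMM-scaled CPM (vertical axis, from 0) of the 7 kept rows that read the strand of a member, in each library (circle, replicate 1; triangle, replicate 2) of the groups olaparib, EZM8266, combination and DMSO, with a line at the mean of the 2 libraries. On the strand of Tapbp both combination libraries (629.5 and 617.0) lie above all others, and on the strand of Irf1 the 4 libraries with EZM8266 (218.3 to 244.7) lie above the 4 without it (174.8 to 189.1).

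On the strand of Irf1, a transcription factor that interferon induces and that acts on class I genes, the libraries divided by EZM8266. The Gm17334 row had 189.1 and 174.8 TMM-scaled CPM with olaparib, 230.0 and 244.7 with EZM8266, 221.6 and 218.3 with the combination, and 183.1 and 180.9 with DMSO. All 4 libraries with EZM8266 were above all 4 without it, and olaparib and DMSO had the same mean of 182.0. EZM8266 averaged over olaparib gave a log2 fold change of 0.33 ± 0.09 (SE, 95% interval 0.13 to 0.52, unadjusted p = 0.00316, edgeR adjusted p = 0.222). EZM8266 against DMSO gave 0.38 ± 0.13 (adjusted p = 0.739) and the combination 0.27 ± 0.13 (adjusted p = 0.973). The labels number the EZM8266-treated samples 33 to 36 and the others 41 to 44, so an effect of that numbering and one of EZM8266 cannot be told apart. The Irf1 row itself (chromosome 11, 53770014 to 53778374, plus strand) had 54.44 and 47.98 CPM with olaparib, 57.5 and 48.74 with EZM8266, 51.37 and 51.66 with the combination, and 44.07 and 33.35 with DMSO. Here the 6 treated libraries were above both DMSO libraries, with log2 fold changes of 0.42 ± 0.23 for olaparib (adjusted p = 0.999), 0.48 ± 0.23 for EZM8266 (adjusted p = 0.854) and 0.43 ± 0.23 for the combination (adjusted p = 0.973).

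**Figure D2:**
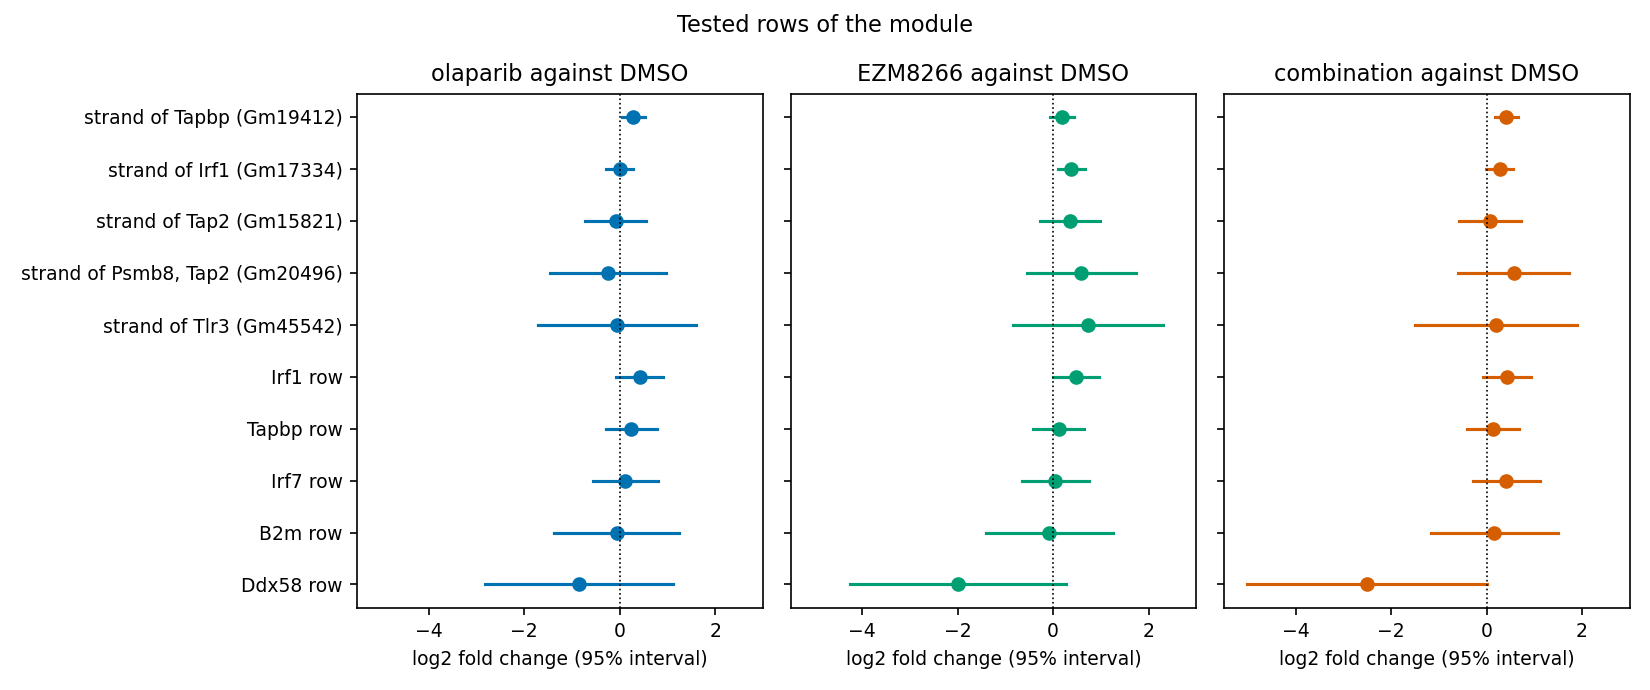
Log2 fold changes (horizontal axis; point, estimate; line, 95% interval of the edgeR fit) of the 10 tested rows for each of the 3 treatments against DMSO. The intervals are narrowest on the strands of Tapbp and Irf1, and the Ddx58 row has the widest, from -5.01 to 0.01 for the combination.

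The other rows on the strand of class I pathway genes had fewer counts and wider intervals. The Gm15821 row, within Tap2, had 27.22 and 24.4 TMM-scaled CPM with olaparib, 32.53 and 37.8 with EZM8266, 32.23 and 25.34 with the combination, and 21.55 and 32.11 with DMSO. Both EZM8266 libraries were the highest, the other 3 groups overlapped, and the log2 fold change of EZM8266 against DMSO was 0.35 ± 0.29 (SE, edgeR adjusted p = 0.910). The Gm20496 row, over Psmb8 and Tap2, had 5.15 and 4.879 CPM with olaparib, 8.322 and 9.947 with EZM8266, 8.058 and 9.746 with the combination, and 4.897 and 6.793 with DMSO. As on the strand of Irf1, the 4 libraries with EZM8266 were above the 4 without it on the CPM scale. The row held 5 to 11 counts per library, and DMSO replicate 2 and EZM8266 replicate 1 both had 11, so the raw counts did not separate. EZM8266 averaged over olaparib gave 0.70 ± 0.38 (95% interval -0.12 to 1.53, adjusted p = 0.840). The Gm17334 and Gm20496 rows are 2 of the 24 kept rows (8.33%) with all 4 such libraries higher, against 2.17% of the 14677 rows, and 0 of the 24 had them all lower, against 2.03%. The Psmb9 row, Psmb9 being an immunoproteasome subunit, had 5 and 5 counts with olaparib, 4 and 6 with EZM8266, 2 and 12 with the combination, and 7 and 3 with DMSO, and all groups overlapped.

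Among the members' own rows in the class I pathway, B2m, the light chain of class I, had 14 and 9 counts with olaparib, 18 and 3 with EZM8266, 13 and 8 with the combination, and 7 and 18 with DMSO. The replicates of each group differed more than the group means, and the combination against DMSO was 0.17 ± 0.62 (SE, edgeR adjusted p = 0.997), with a 95% interval of -1.16 to 1.50. H2-D1, a class I heavy chain, had 5 and 5 counts with olaparib, 11 and 3 with EZM8266, 12 and 5 with the combination, and 5 and 9 with DMSO. H2-K1 had 8 counts over all libraries, and reads shared by these closely similar heavy chain genes may have been divided between them or lost. Both heavy chain rows also hold mainly fragments opposite to the gene. Psmb8, Tap1, Tap2 and Nlrc5, the activator of class I transcription, had 1 to 5 counts in their own rows over all libraries. Summed over the 9 class I members, the own rows gave 56.38 ± 0.38 TMM-scaled CPM with olaparib, 53.66 ± 13.99 with EZM8266, 63.87 ± 2.02 with the combination and 53.85 ± 2.79 with DMSO (SD, n = 2 each).

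The nucleic acid sensors contained the row with the widest spread. Ddx58, which encodes the RNA sensor RIG-I (chromosome 4, 40203773 to 40239828, minus strand), had 24 and 5 counts with olaparib, 12 and 0 with EZM8266, 4 and 3 with the combination, and 2 and 57 with DMSO. The 2 DMSO libraries differed more than any pair of group means, and DMSO replicate 2 alone held 57 of the 107 counts. The log2 fold change was -2.50 ± 1.16 for the combination against DMSO (SE, edgeR adjusted p = 0.973) and -1.81 ± 0.82 for EZM8266 averaged over olaparib (adjusted p = 0.704). Without DMSO replicate 2 these values were 0.79 (adjusted p = 0.996) and -0.17 (adjusted p = 1.0). Without EZM8266 replicate 1 the averaged value was -4.62 (adjusted p = 0.178). Without a filter on low counts the row was called, with adjusted p-values of 0.0197 for the combination and 0.00682 for the averaged comparison, and a block by replicate number with the DMSO numbers exchanged gave a call for the averaged comparison (adjusted p = 0.0172). With the strand leakage share as a covariate the combination value was -0.26 and the averaged value -0.54. The libraries with the most Ddx58 counts, olaparib replicate 1, EZM8266 replicate 1 and DMSO replicate 2, also had the 3 highest leakage shares (1.535, 1.547 and 1.679%), and no gene is annotated on the other strand of Ddx58. The part of leakage in the Ddx58 counts was not tested beyond the covariate.

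The other sensor rows were smaller. Ifih1, the sensor MDA5, had 1 and 3 counts with olaparib, 3 and 0 with EZM8266, 3 and 5 with the combination, and 0 and 3 with DMSO. Mavs, the adaptor of both helicases, had 9 and 7 counts with olaparib, 4 and 2 with EZM8266, 5 and 5 with the combination, and 13 and 6 with DMSO. On the strand of Dhx58, the Dhx58os row had 2 and 2 counts with olaparib, 2 and 2 with EZM8266, 6 and 7 with the combination, and 4 and 7 with DMSO. The single compounds were below DMSO and the combination above it on the CPM scale. In the fit of the 24 kept rows the interaction of both compounds had a log2 value of 3.19 ± 1.17 (SE, unadjusted p = 0.0113, edgeR adjusted p = 1.0). On the strand of Tlr3, the Gm45542 row had 8.093 and 2.44 TMM-scaled CPM with olaparib, 4.54 and 14.92 with EZM8266, 4.029 and 8.772 with the combination, and 3.917 and 6.793 with DMSO, and all groups overlapped.

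Of the transcription factors, Irf7, which amplifies interferon production, had 27.96 and 25.21 TMM-scaled CPM in its own row with olaparib, 20.43 and 30.83 with EZM8266, 35.25 and 30.21 with the combination, and 30.36 and 19.76 with DMSO. The combination lay above olaparib in both libraries and overlapped DMSO, with a log2 fold change against DMSO of 0.42 ± 0.32 (SE, edgeR adjusted p = 0.982). The Irf7 row lies inside the body of Phrf1 on the other strand and overlaps its exons by 45 bases, below the minimum used here. Stat2, part of the complex that binds the ISRE, had 1 and 3 counts with olaparib, 5 and 0 with EZM8266, 1 and 0 with the combination, and 4 and 1 with DMSO. Irf9, its DNA-binding partner, had 7 counts over all libraries.

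**Figure D3:**
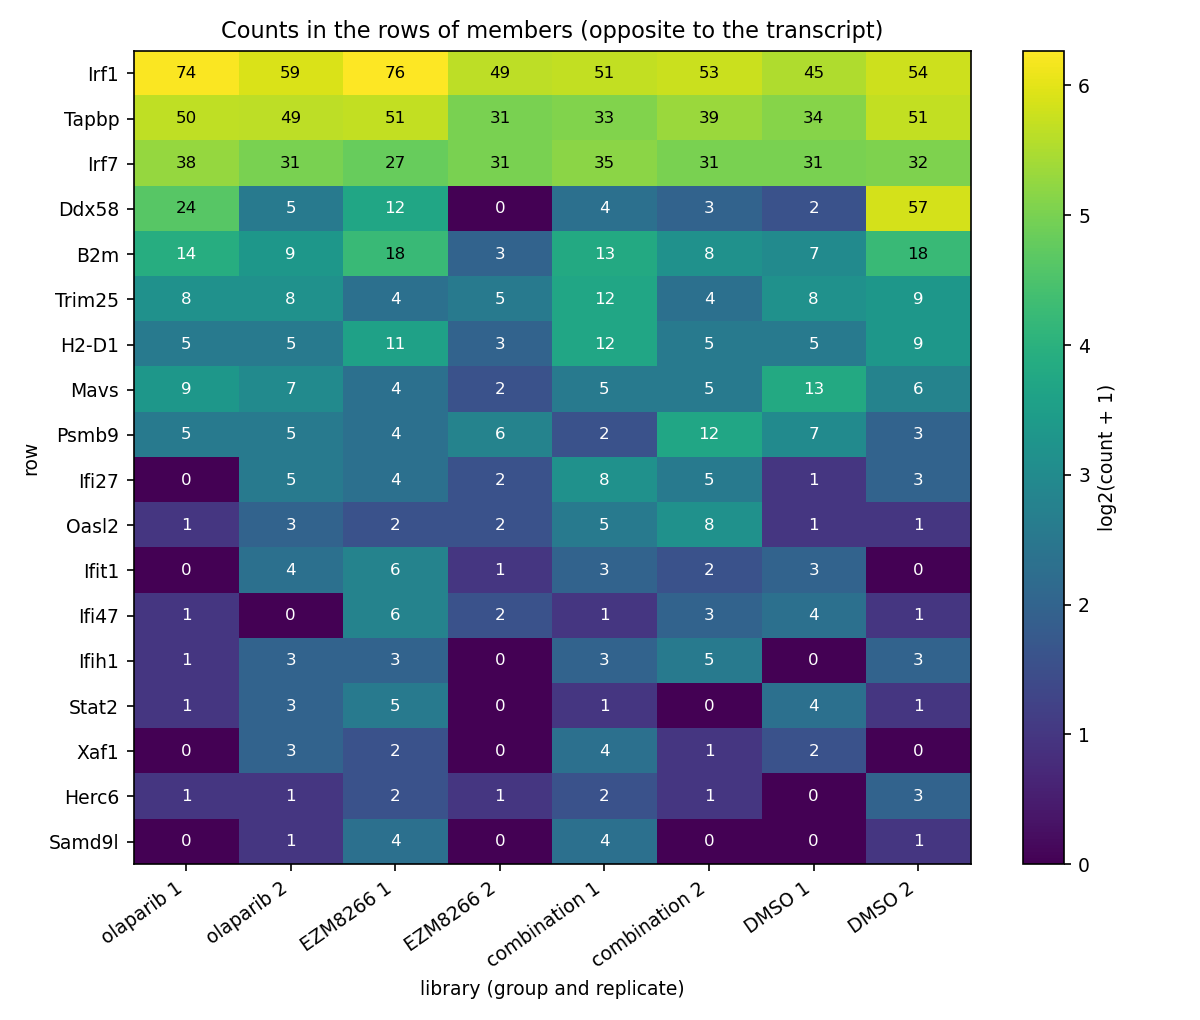
Counts in the 18 kept rows of members, in each library (columns: olaparib, EZM8266, combination and DMSO, replicates 1 and 2), with the colour on a log2(count + 1) scale and the count printed in each cell. Most rows below B2m hold under 10 counts per library, and DMSO replicate 2 stands out in the Ddx58 row with 57 counts.

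The interferon-induced effectors were the largest role, with 24 members, and 7 of their rows were kept. Their summed own rows gave 14.71 and 25.21 TMM-scaled CPM with olaparib, 27.99 and 12.93 with EZM8266, 54.39 and 26.32 with the combination, and 25.46 and 14.82 with DMSO. Combination replicate 1 was the highest library, and combination replicate 2 lay below EZM8266 replicate 1 and close to DMSO replicate 1. The largest difference within the role was in Oasl2, a member of the oligoadenylate synthetase family, with 1 and 3 counts with olaparib, 2 and 2 with EZM8266, 5 and 8 with the combination, and 1 and 1 with DMSO. Both combination libraries were above the other 6, and in the fit of the 24 kept rows the combination against DMSO was 2.93 ± 0.98 on the log2 scale (SE, 95% interval 0.92 to 4.94, unadjusted p = 0.00592, edgeR adjusted p = 0.798). Ifi27, a small interferon-induced membrane protein gene, had 0 and 5 counts with olaparib, 4 and 2 with EZM8266, 8 and 5 with the combination, and 1 and 3 with DMSO. Its combination value was 2.04 ± 0.93 (unadjusted p = 0.0379, adjusted p = 1.0), with combination replicate 2 and olaparib replicate 2 both at 5 counts. These fits rest on 2 DMSO counts for Oasl2 and 4 for Ifi27.

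The remaining kept effector rows did not separate the combination from DMSO. Trim25, the ubiquitin ligase that activates RIG-I, had 8 and 8 counts with olaparib, 4 and 5 with EZM8266, 12 and 4 with the combination, and 8 and 9 with DMSO. Ifit1, which binds viral RNA ends, had 0 and 4 counts with olaparib, 6 and 1 with EZM8266, 3 and 2 with the combination, and 3 and 0 with DMSO. Xaf1, Herc6 and Samd9l had 0 to 4 counts in every library. The Ifit, Oas and Mx genes without a kept row, and the antiviral effectors Isg15 and Rsad2, had 0 to 9 counts over all libraries. Isg15 had 2 and 3 counts with the combination and 0 and 0 with DMSO, and Rsad2 had 4 and 1 against 0 and 0. Oasl1 went the other way, with 1 and 0 counts with the combination against 2 and 4 with DMSO. Members of the Ifit and Oas families are similar in sequence, so reads between them may have been divided or lost. These own rows also hold mainly fragments opposite to the gene. Of the interferon-inducible GTPases, which act on the membranes around pathogens, Ifi47 alone was kept, with 1 and 0 counts with olaparib, 6 and 2 with EZM8266, 1 and 3 with the combination, and 4 and 1 with DMSO. For all of these rows a difference of a few counts per library could not be detected at this depth.

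**Figure D4:**
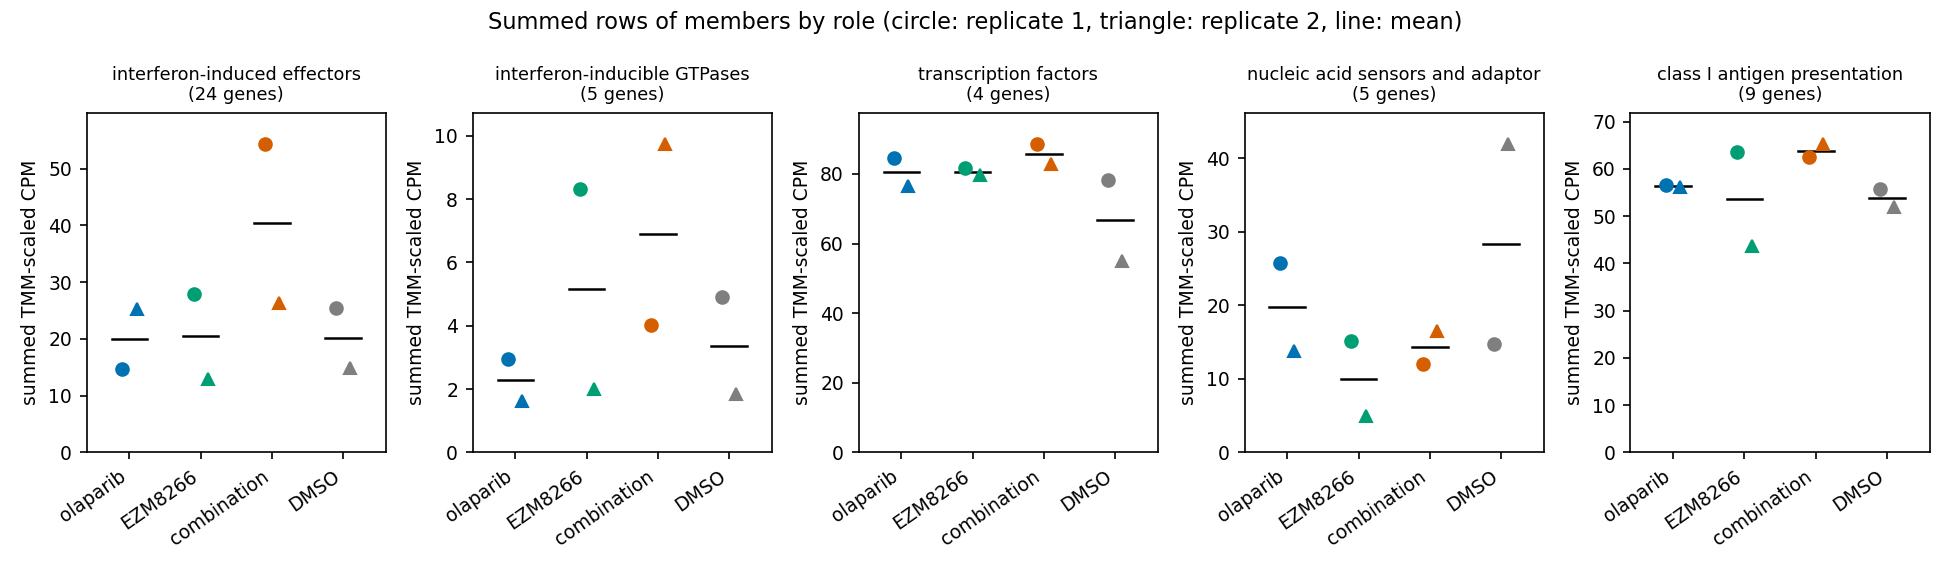
Summed TMM-scaled CPM (vertical axis, from 0) of the members' own rows in each of the 5 roles, per library (circle, replicate 1; triangle, replicate 2) of the groups olaparib, EZM8266, combination and DMSO, with a line at the mean. The effectors average 40.35 with the combination, where the 2 libraries are far apart at 54.39 and 26.32, and the sensors in DMSO are 14.69 and 41.99.

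Over the module, most values of the combination against DMSO lay above 0. Of the 10 tested rows, 9 had a log2 fold change above 0 for the combination against DMSO, with a median of 0.24, and the exception was Ddx58. All 5 rows on the strand of a member were above 0, and 4 of the 5 own rows, which hold mainly fragments opposite to their gene. Of all 6379 rows tested, 47% were above 0, with a median of -0.02. For EZM8266 against DMSO 8 of the 10 were above 0 (median 0.27, against 47.2% of all rows), and for olaparib 5 of the 10 were (median -0.03, against 48.4%). With the 24 kept rows 11 were above 0 for olaparib (median -0.03), 19 for EZM8266 (median 0.21) and 21 for the combination (median 0.44). For the combination these were 7 of 7 rows on the strand of a member and 15 of 18 own rows, with the Psmb9 row in both sets. Most of the kept rows are thus not readings in the direction of the gene. These comparisons share the DMSO libraries and the rows share reads with overlapping neighbours, so the counts are a description of these libraries.

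Counts of libraries that do not overlap need no fit. Among the 24 kept rows, 8 (33.3%) had both combination libraries above both DMSO libraries, against 14.3% of the 14677 rows, and 0 had both below, against 20.4%. The 8 rows were Gm19412 (strand of Tapbp), Gm17334 (strand of Irf1), Gm20496 (strand of Psmb8 and Tap2), Dhx58os (strand of Dhx58), Irf1, Ifi27, Ifih1 and Oasl2. Of these, Irf1, Ifi27, Ifih1 and Oasl2 are own rows, which hold mainly fragments opposite to their gene. For EZM8266 against DMSO 7 rows (29.2%) were higher in this sense and 3 (12.5%) lower, against 14.4% and 18.4% of all rows. For olaparib against DMSO 3 rows (12.5%) were higher and 2 (8.33%) lower, against 13.7% and 18%. For the combination against olaparib 11 rows (45.8%) were higher and 2 (8.33%) lower, against 15.4% and 16.8%. For the combination against EZM8266 6 rows (25%) were higher and 2 (8.33%) lower, against 14% and 12.9%. Some of these rows were separated only by the scaling of libraries. Against olaparib, the lowest combination count equalled the highest olaparib count in Herc6 and Ifi47 (1 each), Ifih1 (3) and Ifi27 (5). Against DMSO, the same held for Ifih1 at 3 counts.

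Other genes of the pathway were read from 4 lists that leave out the 47 members. In the list of 83 further interferon-stimulated effectors, 14 rows on the strand of a gene were tested, and for the combination against DMSO 13 of them were above 0, with a median log2 fold change of 0.74, against 47% of all rows tested. For olaparib against DMSO 13 of the 14 were also above 0 (median 0.29, against 48.4% of all rows), and for EZM8266 against DMSO 11 were (median 0.55, against 47.2%). Where 12 of all 6379 rows tested were called higher in the combination against DMSO, 3 of the 14 were. They were the A930037H05Rik row on the strand of the ubiquitin ligase Rnf213 (0.91 ± 0.12, SE, edgeR adjusted p = 0.00338), the Art3 row on the strand of the chemokine Cxcl10 (1.36 ± 0.21, adjusted p = 0.016) and the Gm17017 row on the strand of the chromatin reader Sp140 (1.61 ± 0.29, adjusted p = 0.0412). For EZM8266 averaged over olaparib 38 of all 6379 rows were called higher, and 3 of the 14 were. These 3 lay on the strands of Rnf213 (0.60 ± 0.08, adjusted p = 0.00375), Sp140 (1.23 ± 0.20, adjusted p = 0.0127) and Trim34a (1.28 ± 0.23, adjusted p = 0.0222). In the rows that carry the symbols of the 83 genes, 17 were tested, 8 were above 0 for the combination against DMSO, and none was called. In the lists of 32 nucleic acid sensing genes, 39 class I and class II genes and 30 interferon ligands, receptors and signalling genes, none was called in any comparison, with medians of 0.13, 0.12 and -0.08 for the combination against DMSO over the 7, 3 and 4 tested rows on the strand of a gene. The module's 5 tested rows on the strand of a member ran from 0.07 to 0.57 in this comparison, with a median of 0.27. The members and the lists were chosen with earlier results of these data known, which can favour both the calls in the effector list and the order of these medians. The calls among the 14 rows, set beside those over all rows, are therefore no independent evidence about that list. The difference from the effector list was not tested.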

How the data were processed

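RNA was measured in 8 libraries of ID8-OR cells. Ribosomal RNA was removed from total RNA before library preparation, per the labels' protocols. The deposited table holds counts of fragments per gene as whole numbers, without normalization. Per the submitters' processing notes, HISAT2 2.1.0 and Subread 1.6.2 were used with build mm10. Per the file headers, featureCounts used strand setting 1 on GENCODE M18 exons and counted a fragment for every gene it overlapped. Groups follow the sample titles, and combination replicate 2, whose treatment label reads EZM8267, stayed in the group of its title. The members, lists and tests were chosen with earlier results of these data known.

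Row symbols and opposite-strand overlaps came from GENCODE annotation of the same assembly. Rows were tested with edgeR 4.0.16 in R 4.3.3 (quasi-likelihood F test, TMM scaling, filterByExpr with a minimum count of 10 and total of 15) in 1 fit of all 8 libraries with 4 group means. Calls needed an adjusted p under 0.05 (Benjamini-Hochberg over all rows tested), and the code was tested on simulated data. The replicate numbers were not taken to pair the libraries, since same-numbered libraries did not deviate together in every pair of groups. Every tested module row is named. Of the kept rows that were not tested, the rule names the 12 with the most counts and non-overlapping ones of at least 40 counts, and the others named were chosen after their values were seen. Alternatives were DESeq2 1.42.0, RLE scaling, other filters, a replicate block, 2-group fits, strand leakage as a covariate, left-out libraries and overlaps of 1 or 200 bases. The precision of low rows is limited by depth, and floors cover counting error only.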

Additional observations from a re-analysis of the deposited data

How the results depend on the processing

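The counts of called module rows were computed under 20 other settings, giving 157 values, of which 154 equalled the reported 0. The other 3 were 1 call each, all of the Ddx58 row. Without a filter on low counts it was called lower for the combination against DMSO (1 row, log2 fold change -2.50, edgeR adjusted p = 0.0197) and for EZM8266 averaged over olaparib (1 row, -1.81, adjusted p = 0.00682). With a replicate block in which the DMSO numbers were crossed, chosen after seeing that replicate differences in DMSO ran against those of the other groups (correlations of -0.315 to -0.147 with DMSO, and 0.218 to 0.293 between the 3 treated groups), it was called for EZM8266 averaged over olaparib (1 row). The cause was not tested. Over all settings the Ddx58 value for the combination against DMSO ran from -3.29 to 0.79, the highest without DMSO replicate 2. The replicate block as numbered left 0 module rows called in each comparison, and leaving out each library in turn gave 0 to 0 calls.

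On the strand of Tapbp the combination against DMSO stayed between 0.35 and 0.50 (adjusted p from 0.0626 to 1.0), and on the strand of Irf1 EZM8266 averaged over olaparib stayed between 0.29 and 0.36 (adjusted p from 0.0613 to 0.95). With a library left out, 13 or 14 module rows were tested, and 8 to 13 of them were above 0 for the combination against DMSO, with medians of 0.27 to 0.43. Depth is a limit: 16 of the 24 kept rows had under 70 counts over all libraries, and 2 libraries a group leave wide intervals.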
